A study of Mus musculus with 14 samples.

Results

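The genes described here belong to families of enzymes and subunits that write, erase, read or move histone and DNA marks. Not every gene in these families acts mainly on chromatin, as given below for Sirt2 and Setd3. Their mRNA was followed in 14 pooled-cell RNA-seq libraries of neurons from mouse brain. Members were taken by gene symbol alone: the histone deacetylases, sirtuins, lysine demethylases, lysine methyltransferases, DNA methyltransferases, Tet oxidases, lysine acetyltransferases, bromodomain proteins, CHD remodellers, and the Smarc and Arid subunits. Of 55401 genes in the count table, 103 carried such a symbol. The 6 on chromosomes X and Y (Hdac6, Hdac8, Kdm5c, Kdm6a, Smarca1 and Kdm5d) were left out, which left 97 members. Each library was made with the SMART-Seq2 kit from polyA RNA of 4 to 5 EGFP-labelled neurons drawn into a pipette from a region labelled PiC. All mice were C57BL/6 with a wild-type genotype, and all had received AAVretro-EGFP, a virus taken up at axon ends, by injection into either PrL or MeA, so a cell was labelled by where its axon was infected. For the cells infected from PrL there were 4 libraries from females and 4 from males, called female PiC-PrL and male PiC-PrL. For those infected from MeA there were 3 from each sex. No animal ages were given, uninjected controls were not among the samples, and nothing said that replicate tubes came from separate animals, so the spread between libraries may be partly technical.

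Histone tails carry acetyl and methyl groups that open or close chromatin to transcription. Acetyltransferases and methyltransferases add them, deacetylases, sirtuins and demethylases remove them, bromodomain proteins bind the acetylated lysines, and CHD, SWI/SNF and ISWI complexes use ATP to slide or evict nucleosomes. In neurons, which no longer divide, these proteins are known for their part in gene programs that follow activity, and mutations in several of the genes (Chd8, Arid1b, Kmt2d, Ehmt1, Dnmt3a) are known causes of human neurodevelopmental syndromes.

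Total counts per library ran from 6132985 to 15392217. Between 12479 and 14908 genes had a count in the 11 libraries of the other 3 groups, against 18964 to 20014 in the 3 male PiC-MeA libraries, which were also the shallowest group on average. The neuronal markers Snap25, Rbfox3, Map2 and Syt1 each reached 10 counts in every library, whereas Nefl and Tubb3 were listed at 0 in all 14. The 6 astrocyte markers summed to 775 to 1615 CPM in female PiC-PrL, 1426 to 5434 in male PiC-PrL, 450 to 626 in female PiC-MeA (where Aqp4 and Gjb6 were at 0) and 714 to 1264 in male PiC-MeA. The 8 interneuron markers summed to 184 to 5299, 129 to 437, 41.5 to 120 and 140 to 1876 CPM in the same order, with Slc32a1 at 0 in all female libraries. Dividing-cell markers summed to at most 31.4 CPM (read counts scaled to library size with TMM factors) in any library.

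The members were found in more libraries than tested genes at large. At a threshold of 10 counts, 41 of the 97 members (42.3%) were detected in all 14 libraries, beside 3897 of the 14599 genes that entered the tests (26.7%). In 12 or more libraries the shares were 64.9% of members and 44.6% of tested genes. The number of members at 10 counts was 75, 66, 78 and 82 in the female PiC-PrL libraries, 72, 67, 72 and 62 in the male PiC-PrL libraries, 81, 76 and 82 in the female PiC-MeA libraries, and 89, 95 and 89 in the male PiC-MeA libraries. The male PiC-MeA libraries therefore stood above all others, as they did over all tested genes, of which 84.1% to 90.6% reached 10 counts there against 51.3% to 71.6% elsewhere. Together the members took 0.273% to 0.448% of a library's counts, and their summed level lay between 2928 and 4819 CPM.

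**Figure D1:**
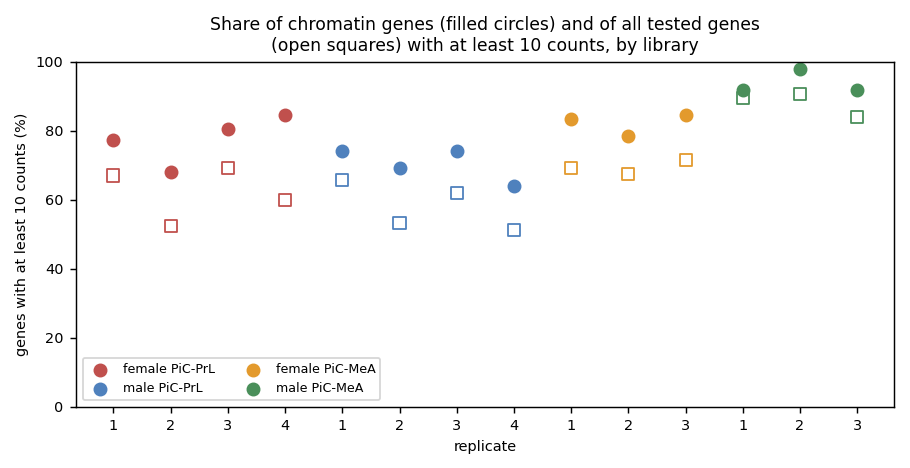
Share of genes with at least 10 counts in each library (vertical axis, percent) by replicate (horizontal axis) and group (colour), for the 97 chromatin genes (filled circles) and the 14599 tested genes (open squares). The circle lies above the square in every library, and the 3 male PiC-MeA libraries are highest on both.

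The 15 members detected in 6 or fewer libraries were Dnmt3b and Dnmt3l, which act in the embryo and germ line, with Hdac7, Hdac10, Kdm1b, Kdm4a, Kdm4d, Kdm8, Kmt2b, Kmt5b, Kmt5c, Setd1a, Setd6, Setdb2 and Smarcd2. Dnmt3b never reached 10 counts, Dnmt3l did so in 1 library and Kmt5c in 2, and these 3 did not pass the filter on low counts, so 94 members were tested. By family, detection in all 14 libraries was most complete for the SWI/SNF and ISWI subunits (8 of 13) and bromodomain proteins (5 of 7). It was met by 11 of 22 lysine methyltransferases, 5 of 9 CHD remodellers, 4 of 9 histone deacetylases, 3 of 7 sirtuins, 3 of 15 lysine demethylases, 2 of 8 acetyltransferases and 0 of 7 genes of DNA methylation and oxidation.

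**Figure D2:**
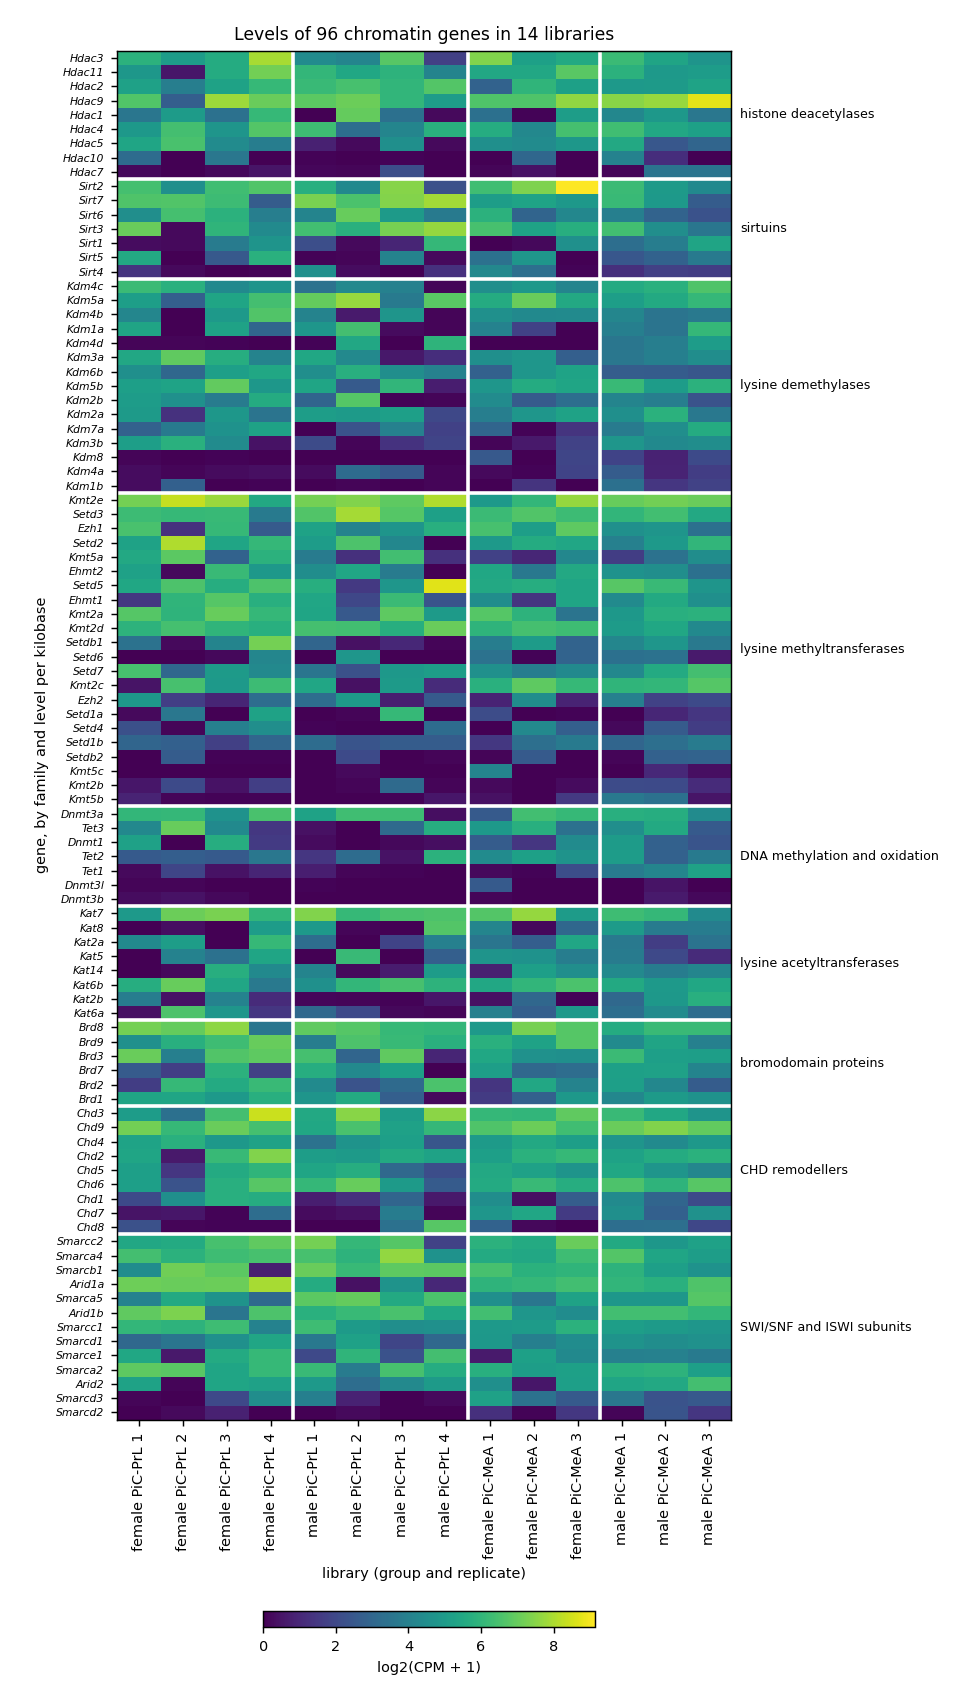
Level of 96 of the 97 members (rows, grouped by family and ordered by level per kilobase) in each of the 14 libraries (columns, grouped by sex and projection), as log2(CPM + 1). Members such as Chd9 and Kmt2d are coloured alike across a row, whereas many others, such as Setd1a and Chd8, are bright in a few libraries and dark in the rest.

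Most of the listed start windows of these genes were rich in CpG. RefSeq windows of 300 bases (250 before to 50 after the listed start, GRCm38.p6) were matched for 77 of the 97 members. Only the first listed window of each gene symbol was used, also where a gene has other starts. The dinucleotide CG, which reads the same on both strands and is the site that Dnmt enzymes methylate, occurred 10 or more times in 71 of the 77 windows (92.2%), beside 78.2% of 10851 windows of tested genes and 43.9% of 27025 windows of all genes in the table. The 6 members below that number were Kdm4c and Hdac9 with 0, Setd5 with 1, Dnmt1 with 2, Smarcd2 with 4 and Dnmt3l with 6. The windows of Setd5 and Smarcd2 lay inside the annotated gene, not at its outer end. The windows of 3 members are shown, with each CG in capitals, for members that the results below turn on: Kmt2d, an evenly detected member, at chr15:98871156-98871455 on the minus strand with 27 CG, Kdm4d at chr9:14500433-14500732 on the minus strand with 17 CG, and Hdac9 at chr12:34917046-34917345 on the minus strand with none.
Kmt2d: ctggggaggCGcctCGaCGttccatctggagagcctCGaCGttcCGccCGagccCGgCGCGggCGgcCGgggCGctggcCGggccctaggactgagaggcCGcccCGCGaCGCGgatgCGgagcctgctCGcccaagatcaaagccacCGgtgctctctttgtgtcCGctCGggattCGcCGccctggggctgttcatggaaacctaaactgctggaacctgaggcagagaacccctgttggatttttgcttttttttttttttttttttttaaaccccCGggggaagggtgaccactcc
Kdm4d: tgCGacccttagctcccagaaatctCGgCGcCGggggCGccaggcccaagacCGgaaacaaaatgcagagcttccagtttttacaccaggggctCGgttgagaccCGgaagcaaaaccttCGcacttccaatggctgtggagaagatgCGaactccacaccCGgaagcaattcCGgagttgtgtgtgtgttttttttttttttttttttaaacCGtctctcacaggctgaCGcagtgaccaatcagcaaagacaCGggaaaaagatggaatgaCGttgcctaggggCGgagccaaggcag
Hdac9: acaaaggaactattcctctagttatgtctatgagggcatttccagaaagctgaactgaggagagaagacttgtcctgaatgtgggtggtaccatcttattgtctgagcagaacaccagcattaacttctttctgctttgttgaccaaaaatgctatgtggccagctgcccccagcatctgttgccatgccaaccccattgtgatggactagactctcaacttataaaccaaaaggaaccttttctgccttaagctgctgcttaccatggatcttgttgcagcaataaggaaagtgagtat
The window of Hdac9 held no CG, and Hdac9 reached 10 counts in all 14 libraries, while Kdm4d reached 10 counts in 5. Gene counts do not show which start was used in these cells.

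Members were also longer and more abundant than tested genes at large. The median summed exon length was 7608.5 bases for tested members and 4257 for all tested genes with an annotated length, and the median gene span was 44790 against 28836 bases. Median level over the 14 libraries was 28.1 CPM for members and 16.2 CPM for all tested genes. Levels of different genes are compared below as CPM per kilobase of summed exon.

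Among the erasers of acetylation, the zinc-dependent deacetylases were led by Hdac3, the catalytic subunit of NCoR/SMRT corepressor complexes. Hdac3 averaged 16.1 CPM per kilobase over the 14 libraries, with 23.6 ± 24.6 (SD, n = 4) in female PiC-PrL, 9.05 ± 11.8 (n = 4) in male PiC-PrL, 20.4 ± 18.3 (n = 3) in female PiC-MeA and 11.4 ± 6.14 (n = 3) in male PiC-MeA. The SD exceeded the mean in both PiC-PrL groups, and the order of the 4 group means lay within those spreads. Hdac11 followed at 13.4 CPM per kilobase, with group means between 10.2 and 17.1. Hdac9, a class IIa enzyme that shuttles between nucleus and cytoplasm, had its highest group mean in male PiC-MeA at 276 ± 140 CPM, against 114 ± 88.6, 85.6 ± 45.9 and 130 ± 57.7 CPM in female PiC-PrL, male PiC-PrL and female PiC-MeA.

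The NAD-dependent sirtuins included the member with the highest level per length, Sirt2, a mainly cytoplasmic deacetylase that oligodendrocytes also express strongly. Sirt2 averaged 20.8 CPM per kilobase, with 14.2 ± 6.74 in female PiC-PrL, 12.6 ± 15.5 in male PiC-PrL, 53.1 ± 50.9 in female PiC-MeA and 8.21 ± 5.74 in male PiC-MeA. The female PiC-MeA mean rested on replicate 3 at 560 CPM, beside 79.9 and 163 CPM in replicates 1 and 2. Summed oligodendrocyte markers lay at 299 to 1866, 256 to 1921, 424 to 1985 and 327 to 1926 CPM in the groups in the same order. Every library therefore held them, and their part in the Sirt2 level was not tested. Sirt7, a nucleolar sirtuin, averaged 15.7 CPM per kilobase, with 13.5 ± 8.53, 31.7 ± 11, 6.42 ± 1.02 and 6.84 ± 6.52 in the groups in that order. Sirt6 and Sirt3 averaged 12.1 and 11.9 CPM per kilobase, and Sirt1, Sirt5 and Sirt4 were lower at 2.61, 2.11 and 1.77.

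Among the acetyltransferases, Kat7, the catalytic subunit of HBO1 complexes, was highest at 16.9 CPM per kilobase, with 17.4 ± 10.7, 19.1 ± 7.94, 20.3 ± 15.8 and 9.83 ± 5.49 in female PiC-PrL, male PiC-PrL, female PiC-MeA and male PiC-MeA. Kat8, which acetylates lysine 16 of histone H4, averaged 6.06 CPM per kilobase but reached 10 counts in only 8 libraries, and its group SDs matched or exceeded the means in the first 3 groups. Of the readers of acetylation, Brd8, a subunit of the TIP60 acetyltransferase complex, averaged 8.79 CPM per kilobase, with 11.1 ± 7.2, 8.39 ± 2.53, 9 ± 5.87 and 5.97 ± 1.26 in the groups in that order. Brd9, a subunit of noncanonical BAF complexes, averaged 8.07 CPM per kilobase.

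Of the methyltransferases, Kmt2e, a member of the MLL family with little catalytic activity of its own, averaged 14.6 CPM per kilobase, with 17.4 ± 11, 16.6 ± 5.99, 9.65 ± 8.99 and 12.9 ± 0.971 in the groups. Setd3, which is known as the actin histidine methyltransferase, averaged 13.5 CPM per kilobase. Writers of H3K27 methylation are alternative catalytic subunits of Polycomb complex PRC2, with Ezh2 typical of dividing cells and Ezh1 of resting ones. Ezh1 stood above Ezh2 per kilobase in 11 of 14 libraries, with medians of 4.04 and 0.611 CPM per kilobase. The H3K9 methyltransferases Ehmt1 and Ehmt2, which work as a heterodimer, divided the libraries 7 to 7, with medians of 3.86 and 4.18 CPM per kilobase.

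Demethylases stood lower, with a family median of 2.63 CPM per kilobase. Kdm4c, which removes H3K9 methylation, was highest at 5.91 CPM per kilobase, with 7.39 ± 4.35, 1.88 ± 1.39, 3.82 ± 0.984 and 11.4 ± 4.59 in female PiC-PrL, male PiC-PrL, female PiC-MeA and male PiC-MeA. Kdm5a, which removes H3K4 methylation, averaged 4.99 CPM per kilobase, with 2.9 ± 2.28, 8.04 ± 5.65, 5.30 ± 3.52 and 3.42 ± 1.17 in the groups. The DNA methylation genes were the lowest family, with a median of 0.959 CPM per kilobase. Dnmt3a, the de novo methyltransferase of mature neurons, averaged 3.09 CPM per kilobase, with group means from 2.48 to 3.70. Dnmt1, the maintenance methyltransferase, averaged 1.54, and Dnmt3a was the higher of these per kilobase in 9 of 14 libraries. Of the enzymes that oxidise 5-methylcytosine, Tet3 averaged 1.68, Tet2 0.959 and Tet1 0.352 CPM per kilobase.

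Among the ATP-dependent remodellers, Chd3, a NuRD helicase, averaged 11 CPM per kilobase, with 13.7 ± 17.9, 13.2 ± 9.93, 9.79 ± 3.58 and 5.54 ± 2.73 in the groups. Chd9 averaged 4.30 CPM per kilobase, with 4.63 ± 1.53, 2.54 ± 1.05, 4.46 ± 1.23 and 6.04 ± 1.03. Smarcc2, a core scaffold subunit of the BAF complex, averaged 12.4 and the ATPase Smarca4 11.3 CPM per kilobase. Smarca4 and Smarca2 are mutually exclusive ATPases of this complex. Smarca4 was the higher per kilobase in all 14 libraries, with medians of 10.5 and 3.76. That order depends on the length used, 6475 bases of summed exon for Smarca4 and 14269 for Smarca2. In CPM not divided by length, Smarca2 was the higher in some libraries, such as female PiC-PrL replicate 1. The class I deacetylases Hdac1 and Hdac2, which share corepressor complexes, were less clearly ordered, Hdac2 being the higher in 8 of 14 libraries, with medians of 8.40 against 3.21 CPM per kilobase.

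**Figure D3:**
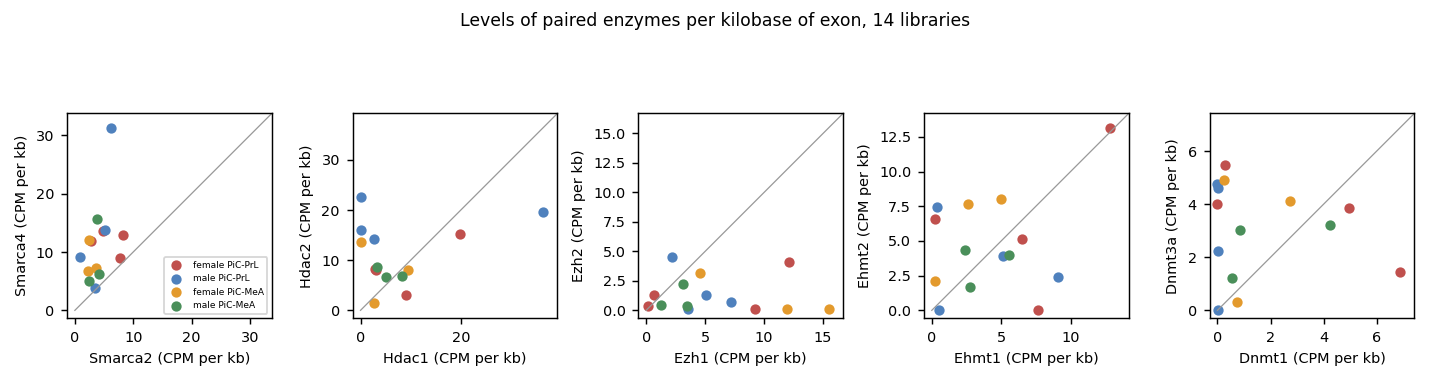
Level per kilobase of exon (CPM per kb, linear axes) of 5 pairs of related enzymes, 1 point per library coloured by group, with the line of equality. All 14 points lie above the line for Smarca4 against Smarca2, an order that depends on their summed exon lengths. The points for Ehmt1 and Ehmt2 divide 7 to 7.

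Levels varied widely between libraries. The coefficient of variation over the 14 libraries had a median of 96.1% among tested members, beside 118% over all tested genes. It takes in differences between the groups as well as between replicates. The most even members were Chd9 (39.5%), Kmt2d (42.4%), Chd4 (43.7%), Setd1b (47.3%) and Smarca2 (50.6%). The most uneven were Chd8 (265%), Setd1a (226%), Kmt5b (208%), Hdac7 (203%) and Tet1 (196%). Chd8, a CHD remodeller, stood at 108 CPM in male PiC-PrL replicate 4 and at 9.73 CPM or less in each of the other 13 libraries. Setd1a stood at 69.0 CPM in male PiC-PrL replicate 3 and 37.5 CPM in female PiC-PrL replicate 4, and at most 11.3 CPM elsewhere, but 51.8% of its exon length is shared on the same strand with Gm49388, so its count is uncertain. Exon overlap with another gene exceeded 10% of the length for 10 members, among them Smarcd3 (48.2%, with Chpf2) and Kdm3b (24.6%, with the opposite-strand lincRNA Gm26538), and the strand setting of the counting was not given in the sources used here.

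Differences between groups were tested with edgeR's quasi-likelihood test over all 14599 genes that passed the low-count filter, in 1 fit with a mean per group, and a gene was called at a Benjamini-Hochberg adjusted p under 0.05. Sex differences are male minus female and projection differences are PiC-MeA minus PiC-PrL, as log2 changes with their standard errors (SE). In bulk tubes of a few cells, fewer expressing cells and less RNA per cell cannot be told apart.

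No chromatin gene was called between males and females among PiC-PrL neurons. The members with non-overlapping groups were Arid1a and Smarca5, which belong to SWI/SNF and ISWI complexes, and the demethylase Kdm4c. They were 1 higher and 2 lower of 94, beside 1.49% and 2.02% of all tested genes. edgeR called 0 of 94 members and 0 of 14599 genes (0%). At an unadjusted p under 0.05 there were 11 members, 3 higher and 8 lower in males (11.7% of members, beside 14.3% of all tested genes). Arid1a, the subunit that defines the canonical BAF complex, stood at 139, 132, 133 and 246 CPM in the female libraries and at 47.7, 0.326, 25 and 1.02 CPM in the male ones. Every male library lay below every female library, and the log2 change was -3.13 ± 1.05 (SE) with an edgeR adjusted p of 0.283. Smarca5, the ISWI ATPase, ran the other way, at 15.6, 45.4, 24.9 and 7.65 CPM in females and 114, 125, 45.8 and 93.5 CPM in males. Its groups met without overlapping at 45.4 and 45.8 CPM, and the log2 change was 2.02 ± 0.88 with an edgeR adjusted p of 0.307.

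Counting groups that did not overlap, Smarca5 was the 1 member higher in male PiC-PrL (1.49% of all tested genes), and Kdm4c and Arid1a were the 2 lower (2.02% of all tested genes). Chd1, a remodeller that binds H3K4 trimethylation, stood at 3.14, 22.1, 53.8 and 48.8 CPM in females and 0.705, 1.39, 6.81 and 0.554 CPM in males, with a log2 change of -3.75 ± 1.72 and an edgeR adjusted p of 0.328. Kdm5a stood at 33.9, 5.80, 40.5 and 83.8 CPM in females and 126, 208, 12.7 and 109 CPM in males, where 3 of 4 male libraries lay above all females (log2 change 1.47 ± 0.87, edgeR adjusted p = 0.489). Over the list, 36 of 94 members had a positive change (beside 48.7% of all tested genes), and the median was -0.41, or -0.40 with genes absent from a group held at their bound, beside -0.02 over all tested genes. The 7 sirtuins had a positive median, 0.87 with 5 of 7 positive, while demethylases (-1.02, 9 of 15 negative) and DNA methylation genes (-1.51, 4 of 5 negative) had the lowest medians. With DESeq2's Wald test 6 members were called (6.84% of all tested genes were): Kdm4d higher in males, and Dnmt1, Kat2b, Kdm3b, Chd1 and Setdb1 lower. With limma voom 0 members were called (0.0548% of all tested genes). The 8 interneuron markers summed to 184 to 5299 CPM in these females and 129 to 437 CPM in males. The 6 astrocyte markers summed to 775 to 1615 against 1426 to 5434 CPM. The sexes overlapped in both sums, and single markers within a list did not all run the same way. Their part in these values was not tested.

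Among PiC-MeA neurons the clearest sex pattern was that of Kdm4d, a demethylase of H3K9 best known from the testis. Kdm4d had 0 counts in each of the 3 female PiC-MeA libraries and 140, 172 and 220 counts in the male ones, the latter being 11.1, 14 and 31.8 CPM. In PiC-PrL it had 1, 1, 1 and 0 counts in females and 1, 536, 0 and 658 counts in males. Thus 5 of 7 male libraries held at least 140 counts and no female library held more than 1, while male PiC-PrL replicates 1 and 3 resembled the females. The pattern of at most 1 count in all 7 female libraries with 10 or more in at least 5 male ones, chosen after the values were seen, was met by 8 of 14599 tested genes (0.0548%), of which 1 is on chromosome Y. Kdm4d is autosomal (mm10 chr9:14462548-14500482) and its exons overlap no other annotated gene. The edgeR adjusted p was 0.298 in PiC-MeA and 0.275 for the sex difference averaged over projections, so Kdm4d was not called in the main test.

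edgeR called 0 of 94 members between the sexes in PiC-MeA and 0 of 14599 genes (0%), with 3 members at an unadjusted p under 0.05, 2 higher and 1 lower (3.19% of members, beside 12.4% of all tested genes). Of these, Kdm3b, an H3K9 demethylase, stood at 0.0812, 0.529 and 2.44 CPM in females and 26.8, 19.3 and 21.5 CPM in males. Its log2 change was 4.45 ± 2.09 (edgeR adjusted p = 0.395). The opposite-strand Gm26538 overlaps 24.6% of the exon length of Kdm3b, so its count is uncertain there. Sirt2 stood at 79.9, 163 and 560 CPM in females and 74.0, 30.6 and 19.3 CPM in males, so that its highest male value lay just under its lowest female one (log2 change -2.69 ± 1.10, edgeR adjusted p = 0.339). Kmt2d, an H3K4 methyltransferase of enhancers, stood at 60.0, 85.7 and 77.3 CPM in females and 30.9, 42.6 and 19.3 CPM in males, again without overlap (log2 change -1.26 ± 0.74, edgeR adjusted p = 0.578).

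In all, 9 members were higher in every male than in every female PiC-MeA library (17.5% of all tested genes), namely Kdm4c, Kdm7a, Kmt2b, Kdm4d, Tet1, Kdm1b, Arid2, Kat2b and Kdm3b. The 8 that were lower (8.76% of all tested genes) were Chd4, Sirt2, Smarcc2, Kdm6b, Ezh1, Kmt2d, Kdm4b and Kat5. A positive change was fitted for 47 of 94 members (53.6% of all tested genes), and the median was -0.01 beside 0.12. DESeq2 called 2 members, Kdm4d and Kdm3b (5.32% of all tested genes), and limma voom called 4, Kdm4d, Tet1, Kat2b and Kdm3b (12.1% of all tested genes). The male libraries held the additional detected genes given above, the astrocyte water channel Aqp4 at 37.2 to 147 CPM against 0 in all female PiC-MeA libraries, and Gad1 at 27.9 to 815 against 1.71 to 33 CPM. The 6 astrocyte markers summed to 714 to 1264 against 450 to 626 CPM, and the 8 interneuron markers to 140 to 1876 against 41.5 to 120 CPM. The part of these in the member values was not tested.

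Averaged over both projections, edgeR called 2 of 14599 genes by sex (0.0137%), neither of them a member. There were 4 members at an unadjusted p under 0.05 (4.26% of members, beside 10.7% of all tested genes), Kdm4d, Smarca5 and Hdac7 higher in males and Dnmt1 lower. Where the higher sex reached 10 counts in all of its libraries, the smallest p on the male side were those of Smarca5 and Sirt7. Smarca5 had a log2 change of 1.60 ± 0.67 (edgeR adjusted p = 0.395) and Sirt7 a change of 0.66 ± 0.62 (edgeR adjusted p = 0.859). On the female side were Sirt2, at -1.44 ± 0.70 (edgeR adjusted p = 0.480), and Arid1a, at -1.54 ± 0.76 (edgeR adjusted p = 0.490). For Arid1a the 3 PiC-MeA libraries of each sex overlapped, at 60.4 to 81.9 CPM in females and 55.2 to 97.3 CPM in males. No member separated all males from all females, as did 0.089% of tested genes upward and 0.0342% downward. A positive change was fitted for 37 of 94 members (51.8% of all tested genes), with a median of -0.25 (-0.22 with bounds) beside 0.04. DESeq2 called Smarca5 and Kdm4d (4.32% of all tested genes), limma voom called 0 members (0.0274%), and edgeR without the low-count filter called Kdm4d (0.0609% of 27912 genes).

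**Figure D4:**
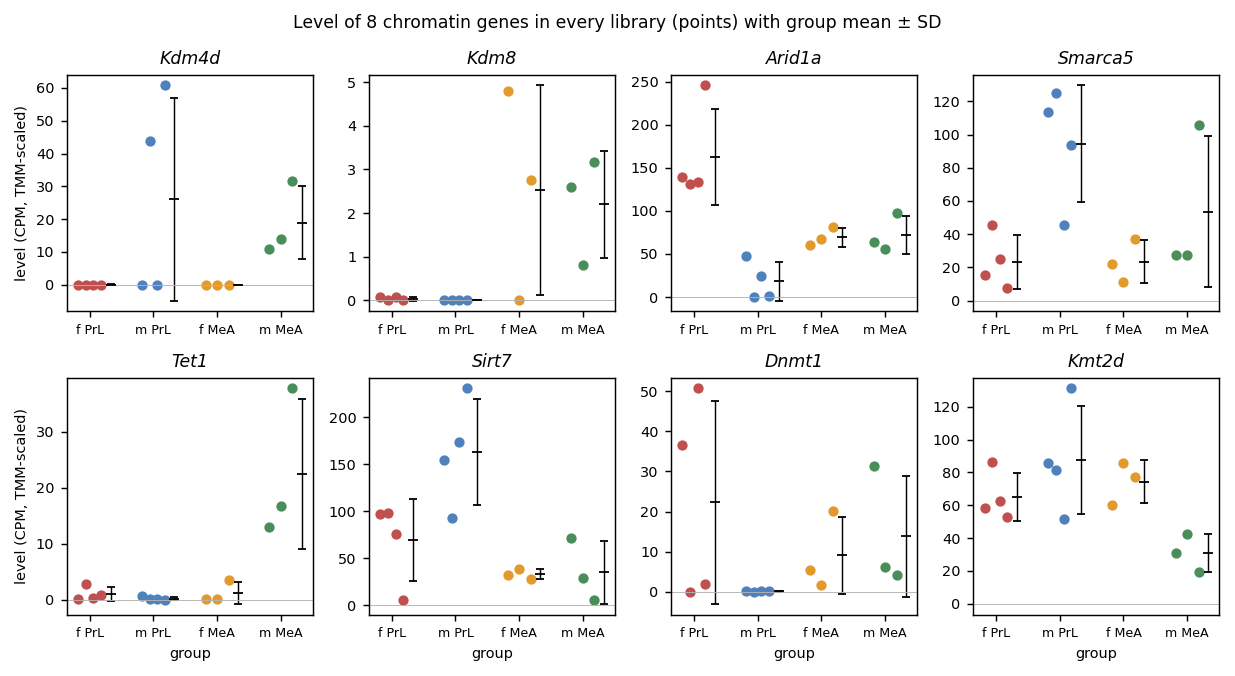
Level (CPM, linear axes that differ between panels) of 8 members in every library (points) by group, with group mean and SD (bars, n = 4, 4, 3 and 3). Kdm4d is near 0 in all 7 female libraries and in 2 of 4 male PiC-PrL libraries, Kdm8 is near 0 in all 8 PiC-PrL libraries, and Arid1a in male PiC-PrL lies below the other 3 groups.

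Between the projections in females no chromatin gene was called, and 4 had groups that did not overlap, Tet2 (higher in PiC-MeA) and Arid1a, Kmt2b and Brd1 (lower). edgeR called 0 of 94 members and 0 of 14599 genes (0%), and 2 members reached an unadjusted p under 0.05, the demethylases Kdm8 (higher in PiC-MeA) and Kdm3b (lower) (2.13% of members, beside 11.1% of all tested genes). Tet2 was the 1 member higher in every PiC-MeA library (4.47% of all tested genes), at 20.2, 35.5 and 24.8 CPM against 4.99, 5.62, 4.99 and 11.2 CPM in PiC-PrL. Arid1a, Kmt2b and Brd1 were the 3 that were lower (3.97% of all tested genes), Arid1a at 60.4, 66.8 and 81.9 CPM against 132 to 246 CPM.

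Where the higher group reached 10 counts in all of its libraries, the smallest p in females were those of Sirt2 (log2 change 1.90 ± 0.97, edgeR adjusted p = 0.490) and Chd7, the CHARGE syndrome remodeller (3.27 ± 2.08, adjusted p = 0.646), on the PiC-MeA side. On the PiC-PrL side were Kmt5a, the H4K20 monomethyltransferase (-2.96 ± 1.76, edgeR adjusted p = 0.597), and Kdm7a, an H3K9 and H3K27 demethylase (-2.80 ± 1.99, adjusted p = 0.718). Chd7 stood at 26.9, 40.8 and 1.93 CPM in female PiC-MeA and at 0.402, 0.461, 0.0713 and 8.63 CPM in female PiC-PrL, so 1 library crossed in each group. A positive change was fitted for 32 of 94 members (47.5% of all tested genes), with a median of -0.33 (-0.31 with bounds) beside -0.06. DESeq2 called Kdm3b, lower in PiC-MeA (4.3% of all tested genes), and limma voom called 0 members (0.212%). Gad1 lay at 47.0 to 888 CPM in female PiC-PrL and 1.71 to 33 CPM in female PiC-MeA. The 8 interneuron markers summed to 184 to 5299 and 41.5 to 120 CPM in these groups. The part of these markers in the differences was not tested.

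In males the projection contrast held the most members at small p. edgeR called 88 of 14599 genes (0.603%), none of them a member, and 13 members reached an unadjusted p under 0.05, 10 higher and 3 lower in PiC-MeA (13.8% of members, beside 22.2% of all tested genes). Kdm8, a JmjC-domain protein that acts as an arginine hydroxylase, had 0 counts in all 4 male PiC-PrL libraries and 33, 10 and 22 counts in male PiC-MeA. In females it had 1, 0, 1 and 0 counts in PiC-PrL and 59, 0 and 43 in PiC-MeA, so female PiC-MeA replicate 2 resembled the PiC-PrL libraries. That pattern, at most 1 count in all 8 PiC-PrL libraries and 10 or more in at least 5 of 6 PiC-MeA ones, was chosen after the values were seen and was met by 11 of 14599 tested genes (0.0753%). The edgeR adjusted p of Kdm8 was 0.0790 in males and 0.0514 averaged over the sexes. Kat2b, the acetyltransferase PCAF, stood at 0.128, 0.0815, 0.0695 and 0.462 CPM in male PiC-PrL and 7.42, 27.9 and 52.8 CPM in male PiC-MeA (log2 change 7.25 ± 2.27, edgeR adjusted p = 0.0841).

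On the PiC-PrL side in males, Sirt7 stood at 155, 93.3, 174 and 230 CPM in male PiC-PrL and 71.5, 28.8 and 5.34 CPM in male PiC-MeA (log2 change -2.21 ± 0.94, edgeR adjusted p = 0.167). When each library's detected-gene number was added as a covariate, the fitted change of Sirt7 turned to 1.46. That number was 18964 to 20014 in male PiC-MeA and 12479 to 13683 in male PiC-PrL. The fit therefore cannot tell it apart from the projection difference in males.

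There were 14 members higher in every male PiC-MeA than in every male PiC-PrL library (19.2% of all tested genes), among them Dnmt1, Tet1, Hdac9, Chd9 and Arid1a, and 6 lower (6.23% of all tested genes), among them Hdac2, Smarcb1, Kdm6b, Sirt7 and Kmt2d. Tet1 stood at 12.9, 16.7 and 37.7 CPM in male PiC-MeA and at 0.705 CPM or less in male PiC-PrL. Dnmt1 stood at 31.3, 6.17 and 4.19 CPM in male PiC-MeA and at 0.192, 0, 0.139 and 0.277 CPM in male PiC-PrL. Hdac9 stood at 181, 211 and 436 CPM against 113, 133, 63.6 and 32.4 CPM. A positive change was fitted for 48 of 94 members (53.4% of all tested genes), and the median was 0.08 beside 0.16. DESeq2 called 9 members (13.9% of all tested genes): Kdm4c, Chd9, Dnmt1, Tet1, Kat2b, Kdm3b and Kmt5b higher in PiC-MeA, Kdm6b and Kmt2d lower. Also with limma voom 9 were called (17.9% of all tested genes): Kdm8, Chd9, Dnmt1, Tet1, Smarcd2, Kdm1b, Kat2b and Kmt5b higher, Sirt7 lower. Chd9, Dnmt1, Tet1, Kat2b and Kmt5b were thus called by both, from the same counts. Of these, Kmt5b reached 10 counts in only 4 of all 14 libraries, and its male groups overlapped. The share of all tested genes at 10 counts was 84.1% to 90.6% in male PiC-MeA and 51.3% to 65.8% in male PiC-PrL. Detection and projection cannot be told apart between these groups, and the part of detection in these differences was not tested. The male groups also did not overlap for several markers, of excitatory neurons as well as of other cell types. Snap25 lay at 10051 to 16546 CPM in PiC-PrL and 4238 to 7262 CPM in PiC-MeA, and Neurod6 at 271 to 617 and 2.89 to 255 CPM. The astrocyte marker Aldoc lay at 1244 to 4492 CPM in PiC-PrL and 365 to 965 CPM in PiC-MeA, and the interneuron marker Adarb2 at 4.25 to 23.3 and 64 to 462 CPM. The vascular marker Flt1 lay at 0.0641 to 1.02 and 4.26 to 39.3 CPM, and Pdgfrb at 0 and 3.32 to 10.8 CPM. Pecam1 lay at 0 to 0.554 and 2.11 to 6.35 CPM, and the dividing-cell marker Top2a at 0 and 0.0789 to 11.3 CPM. In sum, the 5 endothelial and mural markers lay at 18.3 to 139 and 17.4 to 86.9 CPM. The 6 astrocyte markers summed to 1426 to 5434 CPM in PiC-PrL and 714 to 1264 CPM in PiC-MeA, and the 8 inhibitory neuron markers to 129 to 437 and 140 to 1876 CPM. The part of these markers was not tested.

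**Figure D5:**
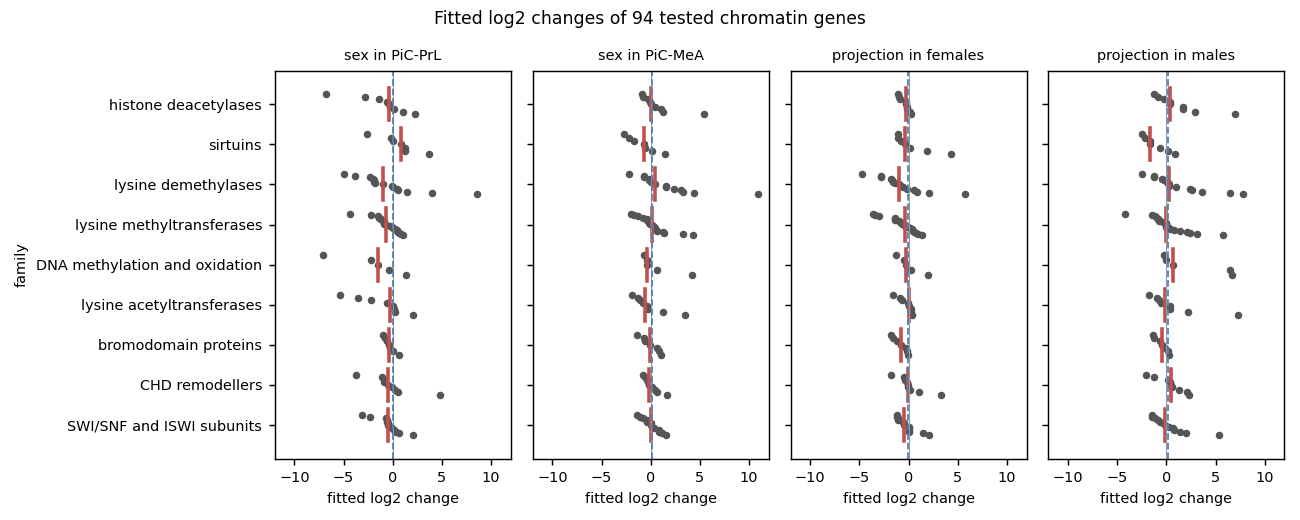
Fitted log2 change of each of the 94 tested members (points) by family in 4 contrasts, with the family median (red bar), zero (solid line) and the median of all 14599 tested genes (dashed line). Nearly every family has points on both sides of 0 in each panel, the points farthest to the right in the sex contrasts are Kdm4d, and fitted values of genes absent from a group depend on the prior count.

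Averaged over the sexes, edgeR called 120 of 14599 genes between projections (0.822%), none of them a member, and 7 members reached an unadjusted p under 0.05, 5 higher and 2 lower in PiC-MeA (7.45% of members, beside 17.4% of all tested genes). Sirt7 had a log2 change of -1.64 ± 0.65 (edgeR adjusted p = 0.182). Chd7 had 2.80 ± 1.45 (edgeR adjusted p = 0.346) and Dnmt1 2.56 ± 1.38 (adjusted p = 0.374). With the detected-gene covariate both Sirt7 (0.28) and Dnmt1 (-0.26) changed sign. No member separated all PiC-MeA from all PiC-PrL libraries, as did 0.356% of tested genes upward and 0.603% downward. A positive change was fitted for 42 of 94 members (52.4% of all tested genes), with a median of -0.14 beside 0.07. DESeq2 called Kdm8 and Tet1 (10.2% of all tested genes), limma voom called Chd7 and Kdm8 (8.75%), and edgeR after removal of a trend with gene span called Kdm8 (0.89%).

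The difference between the sex differences (PiC-MeA minus PiC-PrL) asks whether the male and female levels differed to the same extent in each projection. edgeR called 0 of 94 members and 0 of 14599 genes (0%), and 5 members, all positive, reached an unadjusted p under 0.05 (5.32% of members, beside 15.6% of all tested genes). Kdm3b and Kat2b had the smallest p among positive ones, with log2 values of 8.30 ± 2.76 (edgeR adjusted p = 0.161) and 8.83 ± 3.03 (adjusted p = 0.171). In PiC-PrL, Kdm3b stood at 33.4, 55.2, 20.3 and 0.351 CPM in females and 3.27, 0.0815, 1.53 and 2.68 CPM in males. That order was the reverse of the one in PiC-MeA, apart from female replicate 4. The exon overlap of Kdm3b with Gm26538 given above applies here too. Kat2b stood at 13.6, 0.368, 15.7 and 1.19 CPM in female PiC-PrL and 0.325, 7.33 and 0.0643 CPM in female PiC-MeA, beside the male values given above. Among negative values the smallest p were those of Sirt2 at -2.51 ± 1.39 (edgeR adjusted p = 0.404) and Sirt4 at -5.89 ± 3.36 (adjusted p = 0.428). A positive value was fitted for 59 of 94 members (54.8% of all tested genes), with a median of 0.52 beside 0.31. DESeq2 called 4 members, Dnmt1, Tet1, Kat2b and Kdm3b (7.92% of all tested genes), and limma voom called 2, Kat2b and Kdm3b (4.99%).

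Partners of these enzymes outside the list were read from the same fits. Of 65 genes listed for the same complexes and related writers and readers, such as Rcor1 of the CoREST complex, Eed and Suz12 of PRC2, Ep300, Actl6b of neuronal BAF and the Cbx heterochromatin proteins, 63 were tested. edgeR called 0 of the 63 in all 7 comparisons, beside 0% to 0.822% of all tested genes. At an unadjusted p under 0.05 there were 7, 4 and 4 partners for sex in PiC-PrL, in PiC-MeA and averaged. All tested genes stood at 14.3%, 12.4% and 10.7% there. For projection in females, in males and averaged there were 7, 5 and 4 (11.1%, 22.2% and 17.4% of all tested genes). The difference between the sex differences gave 9 (15.6%). Their median log2 changes were -0.32 and -0.10 for sex in PiC-PrL and PiC-MeA, and -0.32 and -0.08 for projection in females and males, beside -0.41, -0.01, -0.33 and 0.08 for the members. The smallest adjusted p of a partner was that of Cbx3, which binds H3K9 methylation, lower in PiC-MeA averaged over the sexes with a log2 change of -2.43 ± 0.59 (edgeR adjusted p = 0.0537).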

How the data were processed

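The authors deposited raw counts of reads per gene and library. Per the submitters' processing notes, reads were handled with Trimmomatic 0.39, HISAT2 2.2.1, SAMtools and featureCounts 2.0.1 with build mm10. For the annotation release, strand setting and shared reads, the choices are not stated there. GENCODE M21 held 54349 of the 55401 gene identifiers with the same version and gave exon lengths and overlaps. From the deposited counts, genes passing filterByExpr (minimum count 10, minimum total 15) were normalised by TMM, expressed as CPM, and tested with edgeR 4.0.16 (robust quasi-likelihood, R 4.3.3) in 7 contrasts, adjusted over all 14599 genes. DESeq2 1.42.0 and limma 3.58.1 were alternatives, and the edgeR code was tested on simulated data. Library depth is 6132985 to 15392217 counts, and p-values measure only the spread between these tubes.

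Members, families, partners and markers were chosen with earlier results of these data known. Members named per contrast are the 2 with the smallest p in each direction among those whose higher side held 10 counts or more in each library (no such condition for the difference between the sex differences), plus the 2 highest of each family per kilobase and fixed enzyme pairs. Kdm8 and others described by pattern or by another tool's call were chosen after their values were seen, as were the 2 alternatives that leave out 3 libraries. Groups of libraries follow the sample labels. The values of 1 member are not reported here.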

Additional observations from a re-analysis of the deposited data

Results flagged for a closer look

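For 40 named members and 2 list measures, the highest or lowest of the 4 libraries of each PiC-PrL group was compared with the rest by Dixon's criterion, and 18 of 84 groups stood out. Chance flags about 1 in 20 groups of normally distributed values, and over all tested genes 8672 of 29198 PiC-PrL groups stood out (29.7%), beside 21.4% here. The PiC-MeA groups have 3 libraries and were not examined in this way.

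In female PiC-PrL, replicate 4 stood apart for 6 members: Hdac3 at 244 CPM with the next at 57.5, Kat8 at 32.1 with the next at 0.276, Tet2 at 11.2 with the next at 5.62, Arid1a at 246 with the next at 139, Chd7 at 8.63 with the next at 0.461, and Setd3, lowest at 12.1 with the next at 68.2. Replicate 2 of that group was highest for Tet3 at 129 CPM, and replicate 1 for Sirt4 at 1.61 CPM.

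In male PiC-PrL, replicate 2 was highest for Hdac1 at 125 CPM with the next at 9.31. Replicate 3 was highest for Hdac3 at 107 CPM, Chd1 at 6.81, Chd7 at 13.2 and Kmt5a at 81.1. Replicate 4 was highest for Tet2 at 57.9 CPM, Tet3 at 50.7 and Kat2b at 0.462, and replicate 1 for Tet1 at 0.705 and Sirt4 at 22.5 CPM. The last Kat2b and Tet1 values are 5 and 11 counts. No member's sex difference was called as different between the projections by edgeR.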

How the results depend on the processing

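Results were recomputed under each alternative setting, except that leaving out the 3 male PiC-MeA libraries leaves only sex in PiC-PrL and projection in females. Members called stayed at 0 under DESeq2 size factors, the detected-gene covariate, the replicate block, both library exclusions (where they could be run) and every left-out library. They became 6, 2, 2, 1, 9, 2 and 4 with DESeq2's Wald test (in the order sex in PiC-PrL, in PiC-MeA and averaged, projection in females, in males and averaged, and the difference between the sex differences). With limma voom they became 4 (sex in PiC-MeA), 9 (projection in males), 2 (projection averaged) and 2 (difference), without the filter 1 (sex averaged), and with the span trend removed 1 (projection averaged). In the same order, genes called over the whole table became 38, 45, 17, 46, 159, 452 and 84 without the filter, 999, 777, 631, 628, 2022, 1492 and 1156 with DESeq2, and 8, 1761, 4, 31, 2617, 1277 and 729 with limma voom. The covariate gave 0 for sex averaged, projection in males and projection averaged. The replicate block gave 1, 38 and 43 there. Without the 3 PiC-PrL libraries with fewest genes at 10 counts (male replicates 2 and 4, female replicate 2) these were 1, 16 and 31, and the span trend gave 1 for sex in PiC-MeA and 6 for the difference. Residual correlations were -0.0388 to 0.0407 over 19 same-number pairs and -0.0831 to 0.0669 over 54 others. They gave no sign that replicate numbers pair the tubes, but in tubes of a few cells they cannot exclude it.

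Leaving out each library in turn gave 0 members called in all 7 comparisons, and 0 to 1, 0 to 14, 1 to 2, 0 to 1, 20 to 139, 39 to 128 and 0 to 5 genes called. Member medians then ranged from -0.57 to -0.25, -0.28 to 0.04, -0.40 to -0.14, -0.62 to -0.14, -0.17 to 0.15, -0.35 to 0.07 and 0.15 to 0.73. The spread between libraries was taken as the pooled within-group SD of library medians of log2(CPM + 1) over tested members (0.614). The member median moved by more than this for projection in males with limma voom (1.36, beside 1.63 over all tested genes). It also did so with the covariate, for projection in males (-0.60, beside 0.07) and for the difference (-0.60, beside 0.18). Of 28 changes of named members, 25 never changed sign. The others did so with the covariate: Sirt7 to 1.46 in males and 0.28 averaged, and Dnmt1 to -0.26. Detected genes numbered 18964 to 20014 in male PiC-MeA and 12479 to 14908 elsewhere, so the covariate cannot be told apart from that group. The cause of these changes was not tested. There were 15 members at 10 counts in 6 or fewer libraries, and the 3 libraries with the lowest totals (male PiC-MeA, 6132985 to 10572618 counts) held the most members at 10 counts (89 to 95).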
